A study of Mus musculus with 6 samples.

Results

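The entries mir-155, mir-146a and mir-146b were chosen by name, 3 of the 1006 miRNA precursor entries in the deposited table, and all 3 passed the filter on low values. Of these, miR-155 and miR-146a are classical products of nuclear factor κB (NF-κB) signaling, and miR-146b was grouped with them. Toll-like receptors, inflammatory cytokines and RANKL switch this pathway on. miR-155 is made from the noncoding transcript Mir155hg and targets SOCS1 and MITF. By contrast, miR-146a and miR-146b target TRAF6 and IRAK1, adaptor proteins upstream of NF-κB, which for miR-146a forms a negative feedback loop. In bone, osteoclast precursors depend on RANKL, TRAF6 and NF-κB, and miR-155 and miR-146a have both been described as acting on osteoclast formation. The question was whether the mir-146 entries follow mir-155 when myoblasts are placed under fluid flow shear stress (FFSS).

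Small RNA was sequenced from 6 libraries in 4 conditions. Myo-EVs (2 libraries) are extracellular vesicles from medium of C2C12 cells, an established mouse myoblast line, without FFSS. FFSS-Myo-EVs (2 libraries) are vesicles from C2C12 cells on an orbital shaker, and both kinds of vesicles were collected by ultracentrifugation after 48 hr of culture in medium with vesicle-depleted serum. The other libraries came from mouse primary osteoblasts (OB, 1 library) and primary bone marrow cells (BM, 1 library), both without FFSS. The strain given for all 6 libraries, the C2C12 ones included, is a mixed background, with 18.75% from 129/SvJ and the other 81.25% from C57BL/6J. The labels give an age of 8 to 10 weeks for both kinds of cells, whereas the methods describe osteoblasts pooled from the calvariae of several newborn mice and bone marrow from a single adult mouse. The growth protocol in the labels, the same for all libraries, mentions vitamin D and dexamethasone and not FFSS. Nothing states that the vesicle libraries of a group came from separate cultures, so the p-values measure the spread between these libraries only. In edgeR this spread was pooled over the entries tested and not taken from each entry alone.

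The total count was between 2414132 and 3029524 in the vesicle libraries, 5181296 in OB and 6092460 in BM. Levels are given as the authors' normalized expression value, the read count of an entry times 1 constant per library. It is not divided by length, because each read covers a mature miRNA nearly whole. The osteoblast and bone marrow labels were checked against fixed marker miRNAs. The leukocyte entries mir-223 and mir-142a had 24448 and 22827 counts in BM, against 221 and 89 in OB. The mesenchymal entries mir-199a-1 and mir-143 had 158182 and 488014 counts in OB, against 5070 and 39328 in BM. Beside the vesicle libraries, mir-199a-1, mir-199a-2 and mir-214 were higher in OB. The entries mir-143 and mir-145a were not, with normalized values of 269506 and 16583.5 in OB against at least 274482 and 21558.8 in the vesicle libraries. Of the muscle entries, mir-206 had 1961 to 2620 counts in the vesicle libraries, while mir-1a-1 was at 0 in all 4.

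The mature sequences are shown because they decide which targets these miRNAs can bind and which of the 3 entries could exchange reads. They were taken from RefSeq on GRCm38.p6, where all 3 members were matched, are written 5′ to 3′, and have the seed (bases 2 to 8) in capitals.
miR-155-5p: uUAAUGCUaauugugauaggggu
miR-155-3p: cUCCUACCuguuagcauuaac
miR-146a-5p: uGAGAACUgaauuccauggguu
miR-146a-3p: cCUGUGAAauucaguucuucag
miR-146b-5p: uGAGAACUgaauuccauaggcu
miR-146b-3p: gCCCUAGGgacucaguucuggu

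Among the 1738 mature mouse miRNAs of the RefSeq table, the seed GAGAACU was found in 2, miR-146a-5p and miR-146b-5p, and the seed UAAUGCU in miR-155-5p alone. Counted from the 5′ end, the 5p forms of mir-146a and mir-146b share their first 17 bases and differ by the 2 substitutions G18A and U21C. Their 3p forms have different seeds and share a run of at most 8 bases. A window of 16 bases of miR-146a-5p occurs in 1 other hairpin, that of Mir146b, and no such window of miR-155-5p occurs in another hairpin. Reads of miR-155 can therefore be told from those of the other members. Reads of the 5p forms of mir-146a and mir-146b can be told apart only by 2 bases near the 3′ end, and the number of mismatches that the authors allowed is not given in the sources used here.

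Each entry counts reads from the whole hairpin, with the 5p and 3p arms together. The hairpins are shown with both mature arms in capitals, so that the place of the arms can be seen.
mir-155 hairpin: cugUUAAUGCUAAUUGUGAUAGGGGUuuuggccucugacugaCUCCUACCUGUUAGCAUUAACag
mir-146a hairpin: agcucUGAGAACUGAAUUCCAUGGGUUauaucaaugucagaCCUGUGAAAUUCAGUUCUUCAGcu
mir-146b hairpin: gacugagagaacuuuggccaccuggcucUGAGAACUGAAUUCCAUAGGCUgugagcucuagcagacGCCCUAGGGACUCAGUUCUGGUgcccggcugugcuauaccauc

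The mir-155 hairpin lies on the plus strand at chr16:84714140-84714204 of GRCm38, inside exon 2 of the noncoding gene Mir155hg. The mir-146a hairpin, named Mir146 in the annotation, lies on the minus strand at chr11:43374397-43374461. No other GENCODE M21 gene overlaps it, and the nearest, the noncoding Gm12148, is 11021 bases away. The mir-146b hairpin lies on the plus strand at chr19:46342762-46342870, in an intron of the protein-coding gene Mfsd13a on the same strand. The 3 members thus come from 3 chromosomes and share no annotated host gene.

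The members did not change together under FFSS. The entry mir-155 rose in FFSS-Myo-EVs, mir-146b fell, and mir-146a did not pass the test. In FFSS-Myo-EVs the mean of mir-155 was 1.77 times that in Myo-EVs, the mean of mir-146a 1.17 times and the mean of mir-146b 0.739 times. Of the 354 entries tested with edgeR's quasi-likelihood test, 12.1% were called higher and 18.4% lower in FFSS-Myo-EVs, so that a call alone is common in this comparison.

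**Figure D1:**
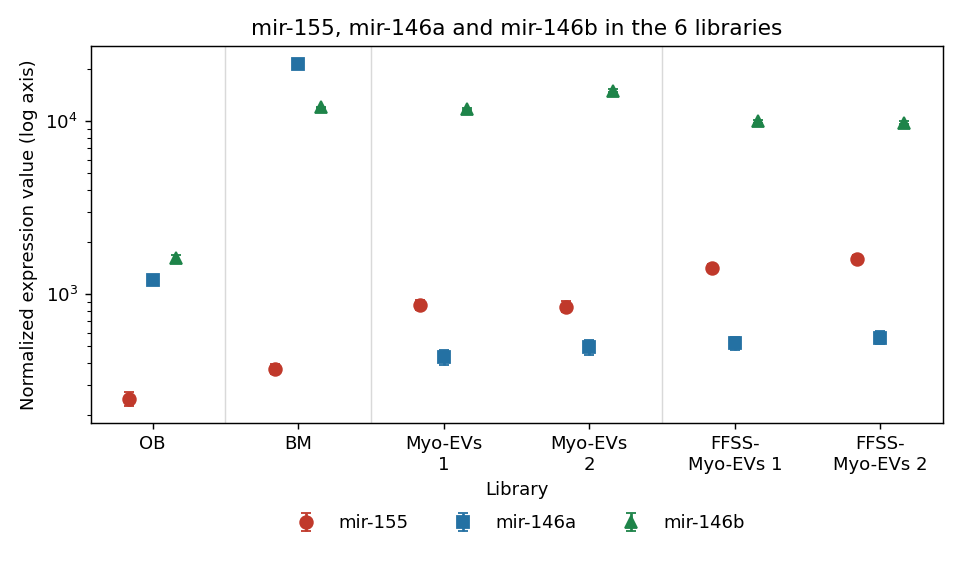
Normalized expression value (log axis) of mir-155, mir-146a and mir-146b in each of the 6 libraries. Points are single libraries and bars are exact 95% intervals for counting error. From Myo-EVs to FFSS-Myo-EVs, mir-155 goes from 862.3 and 846.8 to 1419.6 and 1604.8 and mir-146b from 11793.0 and 15009.3 to 9980.9 and 9834.7, while mir-146a is highest in BM, at 21525.7.

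The entry mir-155, whose product represses SOCS1 and MITF, had a normalized expression value of 862.3 and 846.8 in the Myo-EV libraries and of 1419.6 and 1604.8 in the FFSS-Myo-EV libraries. The groups did not overlap, with both libraries under FFSS on top. Of the entries tested, 36.7% also showed this, or 26.0% with the scaling used in edgeR (TMM). Their counting intervals did not overlap either (785.5 to 921.9 against 1347 to 1690). Behind these values stood 859 and 707 counts without FFSS and 1425 and 1449 counts with it. With edgeR's quasi-likelihood test and Benjamini-Hochberg adjustment, mir-155 had a log2 fold change of 0.70, a standard error of 0.13 and an adjusted p of 9.65e-07. This is a fold change of 1.62, with a 95% interval of 1.36 to 1.92. By this change mir-155 ranked 39 from the top of the 354 entries tested. The study chose mir-155 on these libraries, so its rise in them is no independent evidence. By quantitative real-time PCR, a separate assay, the study also reported a significant rise of this miRNA in vesicles under FFSS. Whether the vesicles of that assay came from other cultures than these libraries is not stated.

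The entry mir-146a, a repressor of TRAF6 and IRAK1, had a value of 430.6 and 492.2 in the Myo-EV libraries and of 519.0 and 559.3 under FFSS. Here too the FFSS-Myo-EV values were the higher ones, as in 36.7% of the entries tested (26.0% with TMM). The gap between the groups was small, and 492.2 and 519.0 have overlapping counting intervals (445.8 to 542.2 and 475.4 to 565.6). For mir-146a edgeR gave a log2 fold change of 0.10, a standard error of 0.14 and an adjusted p of 0.678. The fold change of 1.07 has a 95% interval of 0.883 to 1.31, which spans values on both sides of no change and lies below the 1.36 to 1.92 of mir-155.

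The entry mir-146b, with the same seed as mir-146a, had a value of 11793.0 and 15009.3 in the Myo-EV libraries and of 9980.9 and 9834.7 under FFSS. Both FFSS-Myo-EV libraries were below both Myo-EV libraries, as in 23.7% of the entries tested (32.5% with TMM). The mean was 13401.1 ± 2274.3 (SD, n = 2) without FFSS and 9907.8 ± 103.4 (SD, n = 2) with it. The Myo-EV libraries differed from each other by 0.35 on the log2 scale, above the 0.28 that was the median difference between them, and the FFSS-Myo-EV libraries by 0.02. For mir-146b edgeR gave a log2 fold change of -0.55, a standard error of 0.15 and an adjusted p of 0.00152, which is a fold change of 0.682 with a 95% interval of 0.558 to 0.834. Without the first FFSS-Myo-EV library the log2 fold change was -0.62 (standard error 0.25, edgeR adjusted p = 0.0798), and without the second it was -0.47 (standard error 0.25, edgeR adjusted p = 0.261). The call was thus lost while the change stayed near its size and the standard error grew, since an arm of 1 library leaves the spread to be estimated from the wider Myo-EV pair. The call held when a Myo-EV library was dropped, at a log2 fold change of -0.66 (first dropped) and -0.33 (second dropped). There the spread came from the closer FFSS-Myo-EV pair, whose median difference was 0.14. The kept calls, like the lost ones, thus rest on which pair gave the spread.

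**Figure D2:**
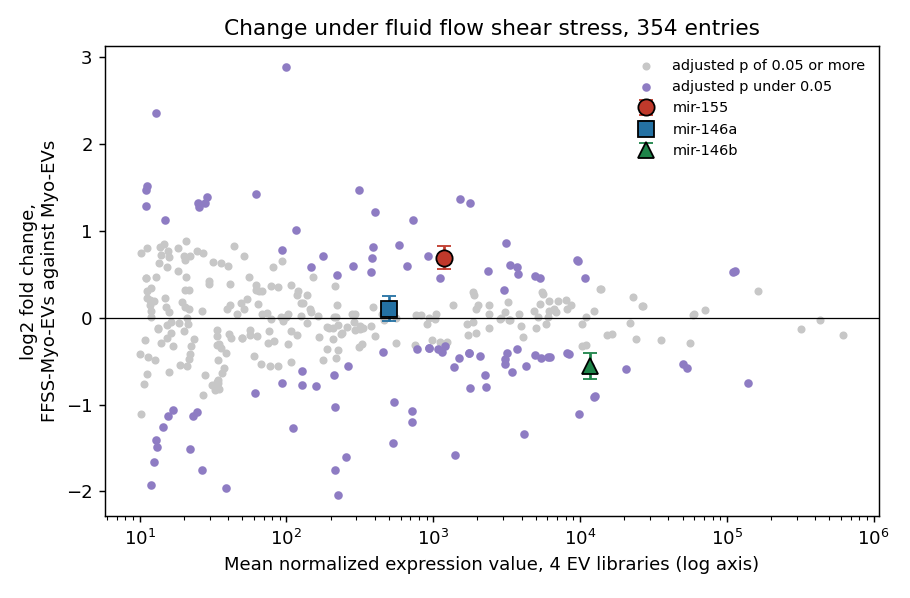
Log2 fold change of FFSS-Myo-EVs against Myo-EVs (vertical axis) by mean normalized expression value over the 4 EV libraries (horizontal log axis) for the 354 entries tested. Grey and purple points are entries without and with an adjusted p under 0.05, and the bars of the 3 members are standard errors. The member mir-155 lies at 0.70, mir-146a at 0.10 and mir-146b, the most abundant of the 3, at -0.55.

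The ratio of 2 miRNAs within a library does not depend on how the libraries are scaled against each other. It was used to describe whether mir-146 follows mir-155 without a choice of scaling. The ratios restate the counts above and are no separate evidence. With mir-155 higher and mir-146b lower in both FFSS-Myo-EV libraries, a lower ratio of mir-146b to mir-155 was already set. For each read of mir-155, Myo-EV libraries held 13.7 and 17.7 reads of mir-146b, and FFSS-Myo-EV libraries held 7.03 and 6.13. The FFSS-Myo-EV ratios were both below the Myo-EV ratios, and the mean log2 ratio went from 3.96 ± 0.26 (SD, n = 2) to 2.71 ± 0.14 (SD, n = 2). The mir-146b to mir-155 ratio under FFSS was thus 0.422 times that without FFSS. When each vesicle library was left out in turn, the difference of the log2 ratio remained between -1.43 and -1.06.

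For mir-146a, the ratio to mir-155 was 0.499 and 0.581 without FFSS, against 0.366 and 0.349 with it. All 4 vesicle libraries held fewer reads of mir-146a than of mir-155, and the FFSS-Myo-EV ratios were the lower ones. The mean log2 ratio went from -0.89 ± 0.15 (SD, n = 2) to -1.49 ± 0.05 (SD, n = 2), which is 0.662 times the ratio in Myo-EVs.

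Reads of mir-146b outnumbered those of mir-146a by 27.4 and 30.5 times in the Myo-EV libraries, against 19.2 and 17.6 times under FFSS. The difference of the mean log2 ratio was -0.65, so that the 2 miRNAs with 1 seed did not move in proportion. Each of the 3 ratios gave a p of 0.33 in a two-sided exact permutation test (0.33 after Benjamini-Hochberg adjustment over the 3). With 2 libraries against 2 this is the smallest p that the test can give, and it cannot pass a threshold of 0.05.

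**Figure D3:**
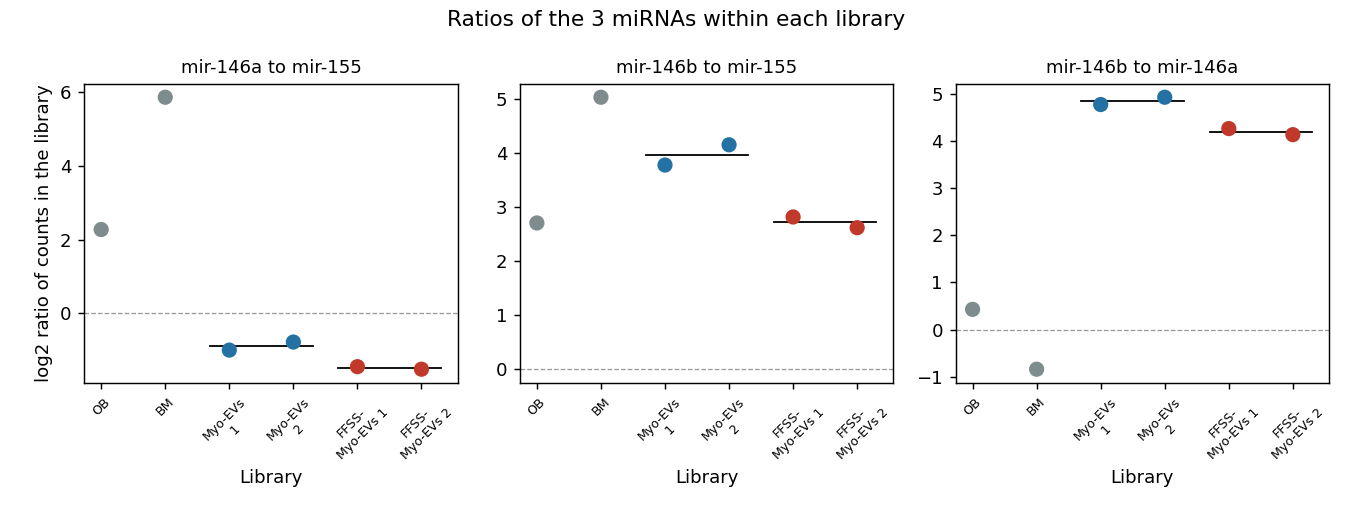
Log2 ratio of the counts of 2 members within each library, in 3 panels with 1 point a library (OB and BM grey, Myo-EVs blue, FFSS-Myo-EVs red) and the vesicle group means as black lines. Both FFSS-Myo-EV points lie below both Myo-EV points in each panel. The largest difference of the means is that of mir-146b to mir-155, at -1.25.

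Within the pool of mir-146 reads, mir-146a took 3.52% (95% Clopper-Pearson interval 3.20% to 3.87%) and 3.18% (2.88% to 3.49%) in the Myo-EV libraries. It took 4.94% (4.54% to 5.37%) and 5.38% (4.93% to 5.86%) in the FFSS-Myo-EV libraries. Vesicles thus carried nearly pure mir-146b with and without FFSS, and the share of mir-146a was higher in both FFSS-Myo-EV libraries. In OB the share of mir-146a was 42.6% (41.3% to 44.0%), and in BM it was 64.2% (63.9% to 64.5%). The methods name no molecular identifiers, so all such intervals describe counting error and not amplification or biological spread. Because a read with mismatches at the differing bases could be counted for the other entry, the small shares of mir-146a in vesicles may include reads of mir-146b, and this was not tested.

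Since the targets of the 5p forms are set by their common seed, the mir-146 entries were also summed, a choice made after the data were seen. The sum came to 12223.6 and 15501.5 for the Myo-EV libraries against 10499.9 and 10394.0 under FFSS, so that the sum followed mir-146b and was lower in both FFSS-Myo-EV libraries. For the sum edgeR gave a log2 fold change of -0.46, a standard error of 0.14 and an adjusted p of 0.00631. Without the first FFSS-Myo-EV library it was -0.59 (standard error 0.25, edgeR adjusted p = 0.0967), and without the second -0.45 (standard error 0.26, edgeR adjusted p = 0.319). As for mir-146b alone, the call was lost with a change of similar size, where only the Myo-EV pair gave the spread. In the same fit, the log2 fold change of mir-155 was 0.77, beside 0.70 with the entries apart.

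**Figure D4:**
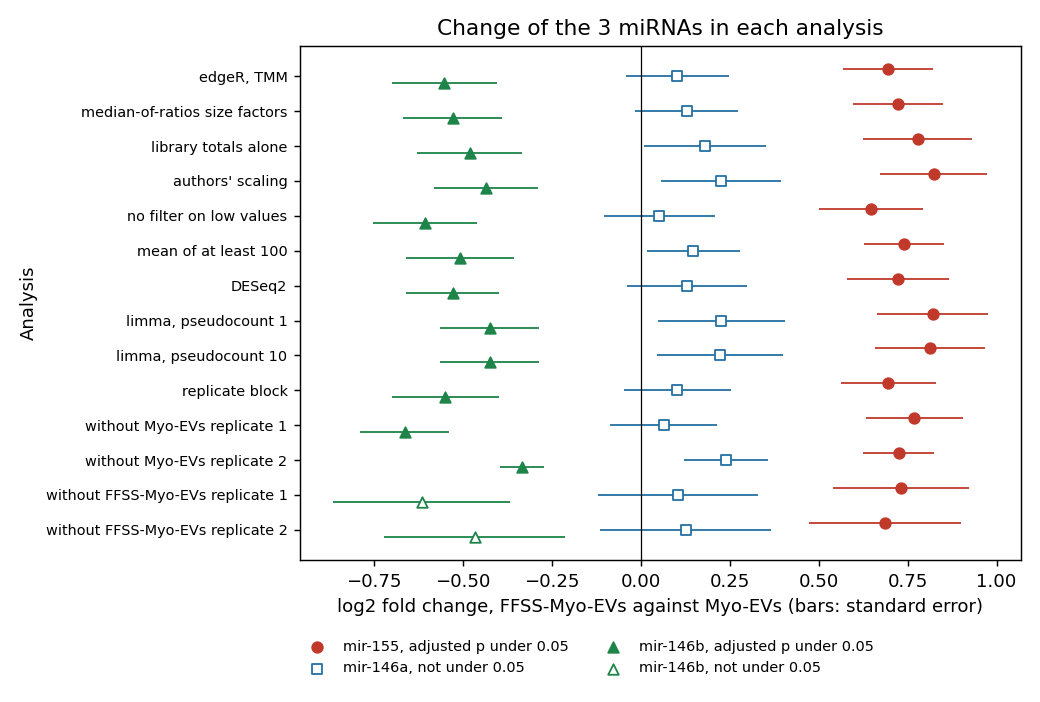
Log2 fold change of FFSS-Myo-EVs against Myo-EVs (horizontal axis, bars are standard errors) for the 3 members in the edgeR analysis and in alternatives to it. Filled symbols have an adjusted p under 0.05. The entry mir-155 stays between 0.65 and 0.82 and filled, mir-146a between 0.05 and 0.24 and open, and mir-146b between -0.66 and -0.33, open without either FFSS-Myo-EV library.

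The levels in the bone cells separate the members in another way. In BM, mir-155 had a value of 368.6 (95% interval 345.3 to 393.1), mir-146a of 21525.7 (21346 to 21707) and mir-146b of 12014.7 (11880 to 12151). In OB, mir-155 had a value of 249.1 (226.6 to 273.1), mir-146a of 1204.5 (1154.5 to 1256.1) and mir-146b of 1622.0 (1563.8 to 1681.7). OB and BM have 1 library each, so these levels are given without a test. In bulk libraries such as these, fewer cells of a type and less RNA per cell cannot be told apart, and for vesicles neither can fewer vesicles that carry a miRNA and fewer copies in each.

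The order of the levels of mir-155 was OB, BM, Myo-EVs and FFSS-Myo-EVs, from lowest to highest. The mean in Myo-EVs was 2.32-fold that in BM and 3.43-fold that in OB, and FFSS-Myo-EVs reached 4.10-fold and 6.07-fold, respectively. A value in FFSS-Myo-EVs of at least 2 times BM was found for 36.8% of the 443 entries with a mean of at least 10 over the 6 libraries, and a value of at least 2 times OB for 35.4%. For Myo-EVs these shares were 35.4% and 35.7%. An excess in vesicles over the bone cells was thus a common pattern in these libraries. OB and BM, neighbours in this order, differed by more than counting error, but with 1 library each no replicate spread can be set beside the difference.

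For mir-146a the vesicles lay below the cells, with Myo-EVs lowest, FFSS-Myo-EVs next, then OB and BM highest. OB was below BM and Myo-EVs below FFSS-Myo-EVs for both miRNAs. The value in BM was 39.9 times the mean in FFSS-Myo-EVs and 17.9 times that in OB, and the value in OB was 2.23 times the mean in FFSS-Myo-EVs and 2.61 times that in Myo-EVs. A value in BM of at least 2 times FFSS-Myo-EVs was found for 38.6% of the entries compared, at least 2 times Myo-EVs for 44.7%, and at least 2 times OB for 26.4%. For OB the shares were 32.3% over FFSS-Myo-EVs and 38.1% over Myo-EVs. Myo-EVs and FFSS-Myo-EVs, neighbours in this order, were not told apart by the edgeR test. Among the 1006 entries, mir-146a ranked 13 in BM, 116 in OB and between 129 and 133 in the vesicle libraries.

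For mir-146b the level was lowest in OB, and FFSS-Myo-EVs, BM and Myo-EVs followed close together. The mean in FFSS-Myo-EVs was 6.11 times OB and 0.825 times BM, and the mean in Myo-EVs was 8.26 times OB and 1.12 times BM. The BM value of 12014.7 lay between those of the Myo-EV libraries, and its counting interval overlapped that of the first (11581 to 12008), so BM and Myo-EVs are not ordered by these data. Among all entries mir-146b ranked 24 and 27 in Myo-EVs, 31 and 33 in FFSS-Myo-EVs, 31 in BM and 100 in OB. In the vesicle libraries mir-155 ranked between 99 and 123.

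The ratios within a library show the same contrast on a scale free of normalization. In BM there were 58.4 reads of mir-146a for each read of mir-155, in OB there were 4.84, and in the vesicle libraries between 0.349 and 0.581. The order of mir-146a and mir-155 was thus turned around between bone cells and vesicles. For mir-146b the same ratio was 32.6 in BM and 6.51 in OB, and the FFSS-Myo-EV ratios of 7.03 and 6.13 lay on either side of the OB ratio.

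Because mir-155 and mir-146a are abundant in leukocytes, the levels of blood cell miRNAs are given beside them. The 7 names of the list, in which mir-142 and mir-486 are each split into an a and a b entry, were found as 9 entries. Their summed value was 35304.8 in BM, 887.5 in OB, 237.9 and 297.1 without FFSS, and 319.9 and 319.0 under FFSS. In the vesicle libraries most of this sum came from mir-486a and mir-486b. Without FFSS mir-486a had values of 76.3 and 110.2 and mir-486b of 79.3 and 115.0. Under FFSS they had 104.6 and 90.8, and 104.6 and 111.9. The sum in vesicles is thus chiefly a level of mir-486. The leukocyte miRNA mir-223 had 24448 counts in BM, 1 and 0 counts in the Myo-EV libraries, and 7 and 5 counts under FFSS. Per read of mir-155 there were 26.3 reads of mir-223 in BM, whereas in the FFSS-Myo-EV libraries mir-155 had 204 and 290 times the reads of mir-223. Of the 4 blood cell entries tested, 1 was called higher in FFSS-Myo-EVs, the erythroid mir-451a, with 3 and 4 counts without FFSS and 26 and 16 with it (edgeR adjusted p = 6.79e-05). The endothelial mir-126a, with 39 and 19 against 101 and 76 counts, and the liver and serum miRNA mir-122, with 6 and 4 against 18 and 14 counts, were called higher as well (adjusted p = 0.000162 and 0.0132 in edgeR). Of the 4 muscle entries tested, mir-133a-1, mir-133a-2 and mir-133b were called lower and mir-206 was not called. Those called lower rest on few reads. For mir-133a-1 there were 19 and 16 counts without FFSS against 10 and 4 with it. The entry mir-133a-2 had 17 and 17 against 6 and 4, and mir-133b 45 and 30 against 14 and 11. Of the 5 mesenchymal entries edgeR called 0 (2 at an unadjusted p under 0.05), while DESeq2 and limma each called 2 higher. These numbers of calls stand beside 12.1% called higher and 18.4% lower over all entries. DESeq2 gave no adjusted p for mir-451a, mir-122, mir-133a-1 and mir-133a-2, and called mir-126a and mir-133b as edgeR did. The edgeR calls of mir-451a, mir-133a-2 and mir-133b held when each library was left out. That of mir-126a was lost without the first FFSS-Myo-EV library (edgeR adjusted p = 0.0705), that of mir-122 without the first FFSS-Myo-EV library or either Myo-EV library (0.0594 to 0.116), and that of mir-133a-1 without the second FFSS-Myo-EV library or either Myo-EV library (0.0567 to 0.261). The part of these differences in the changes of mir-155 and mir-146b was not tested.

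Of the other miRNAs described as induced through Toll-like receptors or NF-κB, none was called higher with mir-155. Of the 12 on the list, 10 were tested, and edgeR called 0 higher and 1 lower and left 9 without a call. At an unadjusted p under 0.05, with DESeq2 and with limma the calls were also 0 higher and 1 lower. Over all entries 12.1% were called higher and 18.4% lower, so for 10 entries these counts are near the background. The mir-9 copies and mir-187 had 7 to 17 counts in each vesicle library. Their standard errors of 0.42 to 0.48 were too wide to call a change of the size of that of mir-155. Those of mir-132 and mir-212 (both 0.36) and of mir-21a (0.30) were too wide as well. Among the 10, only mir-125a, mir-99b and let-7e had smaller ones, of 0.17 to 0.19. The absence of higher calls thus says little about the list beyond these 3. The entry called lower was mir-125a, of the cluster mir-99b, let-7e and mir-125a. Its log2 fold change was -0.54 (standard error 0.19, edgeR adjusted p = 0.0163), and those of mir-99b and let-7e were -0.29 and -0.25 without a call. The median log2 fold change of the 10 was -0.22, beside -0.02 over all 354. For mir-21a it was -0.19, with a standard error of 0.30. The CREB-dependent pair mir-132 and mir-212 had 32 to 43 counts in each vesicle library, mir-147 had 1 to 10, and mir-511 had 0 in all 4, which allows up to 3 counts in a library.

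Of the 22 entries on a list of other miRNAs that act on osteoclast formation in either direction, 18 were tested, with 3 called higher and 2 called lower by edgeR and a median log2 fold change of 0.08. Over all entries 12.1% were called higher and 18.4% lower, so these counts are near the background. The entries called higher were mir-148a, a promoter of osteoclast formation, and both copies of mir-26a, which share reads, described as an inhibitor of it. For mir-148a there were 60 and 72 counts without FFSS and 147 and 157 with it, against 365964 in OB. The entries called lower were mir-125a, which is on both lists, and mir-503, an inhibitor that targets RANK, with a log2 fold change of -0.40 (edgeR adjusted p = 0.0284). The call of mir-503 was lost with DESeq2 (adjusted p = 0.0989), with limma (0.273), with the authors' scaling (0.241) and with library totals alone (0.169). Leaving out 1 library moved these calls. They numbered 0 and 2 when the first and the second FFSS-Myo-EV library was dropped, and 10 and 8 when the first and the second Myo-EV library was. On the Toll-like receptor and NF-κB list the calls numbered 0 without either FFSS-Myo-EV library, so that the call of mir-125a was lost, and 2 and 3, all lower, when the first or the second library of Myo-EVs was dropped.

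The entries whose pattern was most like that of each member were sought by Pearson's r of the log2 values over the 6 libraries, as a description, among the other 245 entries with a mean of at least 100. The 6 points are 4 conditions, and they share the contrast of cells with vesicles. For mir-155 the 5 most alike were mir-3473a, mir-6236, mir-3473f, mir-1934 and mir-690, with r from 0.97 to 0.98. In each of them the vesicle groups did not overlap, FFSS-Myo-EVs were the higher group and OB was lowest. Both FFSS-Myo-EV libraries were on top in 36.7% of the entries tested. Because the entries were chosen by r over these same libraries, a shared order is largely built in, here and for the other members. The hairpins of mir-3473a, mir-3473f, mir-1934 and mir-690 share an 18-base stretch with 274 to 1371 annotated genes, that of mir-155 with 1, its own host gene Mir155hg, and mir-6236 was not matched in the RefSeq table.

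For mir-146a the 5 most alike were mir-16-1, mir-142a, mir-128-1, mir-652 and mir-342, with r from 0.98 to 0.99, and all of them were highest in BM. Of these, mir-142a and mir-342 are on the blood cell list, with values in BM of 9066.5 and 8270.1 and in FFSS-Myo-EVs of 7.0 and 8.9 and of 56.8 and 65.3. For mir-146b the 5 most alike were mir-92a-2, mir-186, mir-92a-1, mir-10a and mir-30c-2, with r from 0.95 to 0.99 and OB lowest in each. Between the members themselves, r was -0.62 for mir-155 and mir-146a, 0.63 for mir-155 and mir-146b, and -0.02 for mir-146a and mir-146b. Neither mir-146 entry was therefore among the entries close to mir-155, ranking 89 (mir-146b) and 176 (mir-146a) of 245 by likeness to it.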

How the data were processed

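Per the labels and the methods, small RNA libraries were made from 90 ng of total RNA and sequenced in pairs, and the submitters' processing notes name mm10. The authors used CLC Genomics Workbench to collapse identical reads, assign them to miRBase precursors and produce the deposited raw counts. They also deposited a normalized expression value, a scaled signal equal to the count times 1 constant per library. The miRBase release and the mismatches allowed are not given in the sources used here.

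Counts of the 4 vesicle libraries were tested with edgeR 4.0.16 in R 4.3.3 (TMM, library size as the total over all entries, quasi-likelihood test, Benjamini-Hochberg adjustment) for the 354 entries with a mean normalized value of at least 10. The fit had 2 residual and infinite prior degrees of freedom. The spread behind its standard errors, intervals and p-values was thus pooled over entries. An entry's own difference between replicate libraries did not set them. In simulated counts of this comparison over 354 entries, 174 of 200 changed 2-fold were called in the right direction, and 7 unchanged ones were called. The simulation gave all entries and both groups 1 common dispersion (0.0108), whereas the Myo-EV pair was wider than the FFSS-Myo-EV pair. Its fold of 2 also exceeds the 1.62 of mir-155. It thus checks the fit and does not give the power or error rate for these libraries. Positions came from GENCODE M21 and RefSeq on GRCm38. Limma 3.58.1, DESeq2 1.42.0, other scalings, other filters, a replicate block and each library left out were alternatives. Python 3.11.15, pandas 2.3.3 and scipy 1.17.1 were used for ratios and intervals. Ratios to a cell with 3 counts or fewer used 3 counts. The named entries were the members, list members and the 5 entries most like each member. Members and lists were chosen with earlier results of these data known.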

Additional observations from a re-analysis of the deposited data

How the results depend on the processing

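The direction of change of mir-155, mir-146a and mir-146b held in the alternatives reported here. So did the call of mir-155 (14 alternatives, adjusted p from 1.99e-09 to 0.0164) and the absence of a call for mir-146a (13 alternatives, 0.153 to 0.903). The log2 fold change ranged from 0.65 to 0.82 for mir-155, from 0.05 to 0.24 for mir-146a and from -0.66 to -0.33 for mir-146b, and the call of mir-146b was lost in 2 of 13 alternatives, those without 1 FFSS-Myo-EV library (log2 fold change -0.62 and -0.47), where the Myo-EV pair alone gives the spread. When each library was left out in turn, the log2 fold change ranged from 0.69 to 0.77 for mir-155, 0.06 to 0.24 for mir-146a and -0.66 to -0.33 for mir-146b, the number of entries called from 44 to 132 (108 with all), calls on the Toll-like receptor and NF-κB list from 0 to 3 and on the osteoclast list from 0 to 10. Fold changes under the authors' scaling were 0.12 higher (log2, median) than under TMM, and with it 54 entries were called higher and 39 lower, against 43 and 65. DESeq2 called 36 higher and 46 lower, limma 57 and 37, and library totals alone 49 and 46.

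Libraries with the same number share no stated origin. Their deviations correlated at 0.21 over the entries tested, and with the replicate block the log2 fold changes were 0.70, 0.10 and -0.55, with 44 entries called higher and 66 lower. The replicate block changed no call of the 3 members, of their sum or of the 14 list entries checked.

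With all libraries rescaled to the same total, the ratio of FFSS-Myo-EVs to BM was 3.33 for mir-155, 0.0204 for mir-146a and 0.670 for mir-146b, and the ratio to OB was 5.87 for mir-146b. With median-of-ratios scaling over the 6 libraries, the ratio to OB was 4.92 for mir-155, 0.363 for mir-146a and 4.96 for mir-146b, and the ratio to BM was 0.0235 for mir-146a and 0.775 for mir-146b. The cause of these shifts was not tested. Without the first or the second FFSS-Myo-EV library, the ratio to BM was 4.35 and 3.85 for mir-155. Differences under the standard errors of 0.13 to 0.15 could not be resolved with 2 libraries a group, and larger ones could also miss a call. For mir-100, a log2 fold change of 0.28 with a standard error of 0.13 had an edgeR adjusted p of 0.109.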
